A study of Mus musculus with 103 samples.

Results

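The daily transcript rhythm of the liver was described in young mice on the normal diet. All 25 arrays whose title gives a young mouse, the normal diet and a liver were taken, of 103 arrays in the series. The mice were C57BL6/J of both sexes (13 arrays labelled female and 12 male), housed under a cycle of 12 h of light and 12 h of darkness, and had been on their diet for 25 weeks, as had the mice of the other diet. Livers were collected every 4 h from zeitgeber time 0 (ZT0, lights on, the dark phase starts at ZT12) to ZT20, with 5 arrays at ZT4 and 4 at each other time, and every time held both labelled sexes. Of the 25 arrays, 24 carried ages of 48 to 57 weeks. The array at ZT4, replicate 4, carried 23 weeks, which is less than the 25 weeks of diet. For comparison, 22 arrays came from old mice on the normal diet (84 to 93 weeks) and 32 from young calorie-restricted mice (47 to 56 weeks, and 1 array labelled 88 weeks). No genotype other than the strain is named for any of these groups.

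The mammalian clock is a transcriptional loop in which BMAL1 (encoded by Arntl) with CLOCK or NPAS2 activates E-box genes, among them those of the period and cryptochrome proteins, which then repress it. REV-ERB receptors and ROR receptors act in opposite directions on Arntl and Npas2 through a shared response element, and the activators DBP, TEF and HLF compete with the repressor E4BP4 (encoded by Nfil3) at D-boxes. In liver this loop and the feeding cycle drive daily waves of lipid, bile acid, glucose and protein-folding genes.

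The motifs of these 3 arms were looked for in RefSeq promoter windows (GRCm38.p6, 250 bases before to 50 after an annotated start), and for each motif up to 2 rhythmic clock genes, those of largest amplitude whose window held it, are shown, so that the letters can be read beside the peak times that follow. Capitals mark the E-box CACGTG in Cry1 and Tef, the D-box TTANGTAA, present at 2 places in Per3, and the ROR element core TAGGTCA or TGGGTCA, on either strand, in Nfil3 and Arntl. The 250 bases before the start are printed, except for Arntl, where the match lies after the start and 30 bases around it are given. Per1 and Ciart also had the E-box in a window, and Timeless the D-box, and these are not printed.
Cry1, chr10:85185055-85185304, minus strand: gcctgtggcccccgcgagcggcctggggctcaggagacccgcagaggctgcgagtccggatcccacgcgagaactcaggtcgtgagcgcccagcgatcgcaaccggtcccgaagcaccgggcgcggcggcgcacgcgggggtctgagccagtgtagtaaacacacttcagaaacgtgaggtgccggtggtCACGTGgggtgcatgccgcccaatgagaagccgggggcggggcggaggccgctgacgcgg
Tef, chr15:81802423-81802672, plus strand: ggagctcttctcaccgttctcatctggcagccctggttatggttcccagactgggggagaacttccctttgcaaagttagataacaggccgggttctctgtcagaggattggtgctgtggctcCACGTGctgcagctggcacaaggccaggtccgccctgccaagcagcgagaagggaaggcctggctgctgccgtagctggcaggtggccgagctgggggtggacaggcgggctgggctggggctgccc
Per3, chr4:151044666-151044915, minus strand: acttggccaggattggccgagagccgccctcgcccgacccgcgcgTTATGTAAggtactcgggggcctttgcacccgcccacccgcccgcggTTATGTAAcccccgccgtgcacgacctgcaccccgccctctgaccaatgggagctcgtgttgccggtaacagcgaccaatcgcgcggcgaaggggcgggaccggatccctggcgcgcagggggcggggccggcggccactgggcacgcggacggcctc
Nfil3, chr13:52981040-52981289, minus strand: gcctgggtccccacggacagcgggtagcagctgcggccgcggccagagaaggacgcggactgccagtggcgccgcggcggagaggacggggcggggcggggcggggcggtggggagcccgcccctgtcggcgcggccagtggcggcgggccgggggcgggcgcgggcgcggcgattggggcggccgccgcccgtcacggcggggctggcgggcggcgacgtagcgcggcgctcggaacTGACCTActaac
Arntl, chr7:113207531-113207560, plus strand: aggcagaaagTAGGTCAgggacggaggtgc

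Of 32851 windows of all RefSeq genes, 7.15% held the E-box, 2.32% the D-box and 6.45% the ROR element core. Of 11979 windows of genes tested here, the shares were 9.57%, 1.54% and 5.55%. Among the genes with rhythms of at least 2-fold described next, 7 of 50 windows (14.0%) of genes peaking near ZT12 held the D-box, and 7 of 33 windows (21.2%) of genes peaking near ZT20 held the ROR element core. The E-box was found in 6 of those 50 windows (12.0%). The cAMP response element and the heat shock element core were counted too, for genes of each of 6 peak times. The heat shock core was in 5 of 26 windows (19.2%) of 19 genes peaking near ZT8, beside 6.06% for genes tested. The windows named here were singled out after their counts were seen, and a match is a run of letters, not a site. Per2, Bhlhe40 and Btrc had no window in the table used.

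A 24 h rhythm was fitted to each gene as a cosine with a mean, an amplitude (the height of the curve over its mean, on the log2 scale) and a peak time. Of 11787 genes tested, 3759 (31.9%) had a rhythm by limma's moderated F test at an adjusted p under 0.05, and 5205 (44.2%) had an unadjusted p under 0.05. Most rhythms were shallow: the median fitted peak was 1.33 times the trough, and the highest was 13.1 times. A difference of at least 2-fold was reached by 264 genes (2.24% of those tested). The limit divides close neighbours, since Abca8b at 1.9999 lay just under it and G0s2 at 2.0009 just over. Without 5 doubted arrays, described after the clock genes, 2868 genes were rhythmic and 251 reached 2-fold. Within each time the arrays differed in labelled sex and age (49 to 56 weeks at ZT16, for example), so they did not all come from a single mouse. The labels do not state that every replicate was a separate animal, and the p-values reflect only the spread among these arrays.

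Rhythms peaked at all times of day. When the day was divided into 6 windows of 4 h centred on the sampling times, 679 genes (5.76% of those tested) were rhythmic with a peak around ZT0, 716 (6.07%) around ZT4, 561 (4.76%) around ZT8, 578 (4.9%) around ZT12, 768 (6.52%) around ZT16 and 457 (3.88%) around ZT20. Of the 264 strong rhythms, 56 peaked around ZT0, 24 around ZT4, 26 around ZT8, 48 around ZT12, 81 (30.7%) around ZT16 and 29 around ZT20. In the light phase lay 50.9% of all rhythmic peaks and 35.6% of the strong ones. Fitted to the 12 arrays labelled male alone, 53.8% of 169 strong rhythms peaked in the light phase. For the 13 labelled female the share was 33.0% of 279. Sex-linked transcripts, described below, hardly separate these labels, and nothing on sex is read from the 2 shares. The medians of the arrays ran from 5.09 to 5.17 (log2). With every array centred on its median, 57.1% of all rhythmic peaks and 38.8% of the strong ones lay in the light phase.

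**Figure D1:**
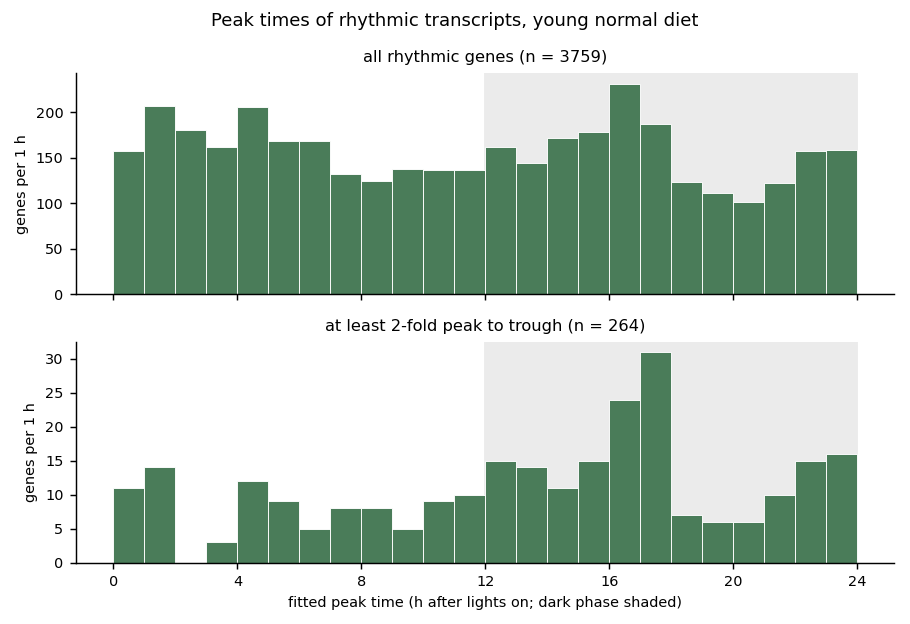
Histograms of the fitted peak time (x axis, hours after lights on, dark phase shaded) in bins of 1 h, with genes per bin on the y axis, for all 3759 rhythmic genes and for the 264 with at least a 2-fold difference. Of the strong rhythms, 81 peak in the 4 h around ZT16, while the peaks of all rhythmic genes are spread over the day.

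Activators of the clock peaked together late in the dark phase. Npas2, the partner of BMAL1 that can replace CLOCK, had the largest amplitude (1.58, SE 0.21, 8.89-fold from trough to peak, peak 22.7 h, SE 0.5, adjusted p = 3.24e-05), and Arntl (2.60-fold, peak 21.6 h, SE 0.4, adjusted p = 1.41e-06) and Clock (2.31-fold, peak 21.8 h) peaked beside it. Npas2 read 6.61, 4.39, 6.67 and 7.04 at ZT0, 4.59, 5.20, 4.74, 4.47 and 3.37 at ZT4, 3.79, 3.63, 3.67 and 3.63 at ZT8, 3.52, 3.68, 3.37 and 3.54 at ZT12, 3.51, 3.60, 3.43 and 3.26 at ZT16, and 6.53, 7.06, 5.62 and 6.38 at ZT20 (log2 intensity). Its 4 arrays at ZT20 (6.39 ± 0.59, SD) did not overlap the 4 at ZT16 (3.45 ± 0.14), and at ZT0 replicate 2 stood apart at 4.39. Arntl read 5.57, 5.23, 6.04 and 5.48 at ZT0, 5.30, 5.56, 5.42, 5.18 and 4.70 at ZT4, 4.26, 4.59, 4.60 and 4.56 at ZT8, 4.76, 4.53, 4.31 and 4.57 at ZT12, 5.21, 5.56, 4.98 and 5.63 at ZT16, and 6.03, 5.69, 5.85 and 5.77 at ZT20. At ZT20 it was 5.83 ± 0.15 and at ZT8 4.50 ± 0.16, with no overlap. Arntl2, the paralogue of Arntl, had no detected rhythm (amplitude 0.01, SE 0.04, adjusted p = 0.991).

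The repressors peaked from late in the light phase to the middle of the dark phase. Nr1d2, which encodes REV-ERB beta, peaked first, at 8.8 h (SE 0.4, 6.49-fold, adjusted p = 4.56e-07). It read 6.40, 7.63, 5.60 and 6.02 at ZT0, 7.71, 7.85, 7.43, 7.62 and 8.16 at ZT4, 8.03, 8.23, 8.29 and 8.30 at ZT8, 8.02, 8.16, 8.09 and 8.15 at ZT12, 7.39, 6.92, 6.99 and 7.20 at ZT16, and 6.08, 4.96, 5.50 and 5.25 at ZT20. The 4 values at ZT8 (8.21 ± 0.13) lay above all 4 at ZT20 (5.45 ± 0.47). Among the period genes, Per3 peaked at 10.8 h (SE 0.3, 7.27-fold), Per1 at 11.9 h (SE 0.9, 2.49-fold) and Per2 at 12.5 h (SE 0.3, 5.60-fold). Per3 read 5.71, 6.59, 5.58 and 5.68 at ZT0, 6.21, 6.49, 5.68, 6.46 and 7.43 at ZT4, 8.01, 8.62, 8.15 and 8.58 at ZT8, 7.91, 7.97, 8.47 and 8.37 at ZT12, 7.39, 7.37, 7.98 and 6.99 at ZT16, and 6.18, 5.40, 5.91 and 5.65 at ZT20. At ZT8 it was 8.34 ± 0.31 and at ZT20 5.78 ± 0.34, with no overlap. Ciart, a repressor of BMAL1 and CLOCK, peaked at 11.3 h (3.03-fold), and Cry1, the cryptochrome that follows last, at 18.6 h (SE 0.4, 4.17-fold, adjusted p = 2.79e-07). With its SE of 0.9 h, the peak of Per1 cannot be placed before or after those of Per3, Ciart or Per2. The means of Per1 were 5.86 at ZT0 and from 7.46 to 7.84 at the other times, a dip at ZT0 that a cosine describes only roughly. Cry2 had a shallow curve at the threshold (1.35-fold, adjusted p = 0.0499), and Bhlhe40 (DEC1) missed it (1.30-fold, adjusted p = 0.0595). Dbp and Nr1d1 were not analysed here, Bhlhe41 and Rorb were too dim to be tested, and Rora had an amplitude of 0.04 (SE 0.03, adjusted p = 0.476).

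At the D-box arm, the activators and the repressor peaked at different times. Tef peaked at 10.7 h (SE 0.3, 3.80-fold, adjusted p = 2.04e-07) and Hlf at 12.2 h (SE 0.6, 1.79-fold), while Nfil3 peaked at 21.7 h (SE 0.5, 3.39-fold, adjusted p = 9.66e-06). Tef read 6.25, 7.03, 5.99 and 6.59 at ZT0, 6.92, 6.74, 6.36, 7.0 and 7.66 at ZT4, 7.65, 8.11, 7.81 and 8.17 at ZT8, 8.36, 7.66, 8.14 and 8.18 at ZT12, 7.71, 7.36, 7.60 and 7.42 at ZT16, and 6.40, 6.00, 6.19 and 6.51 at ZT20. Its values at ZT12 (8.08 ± 0.30) and ZT20 (6.28 ± 0.23) did not overlap. Of 7 tested genes that modify clock proteins, Usp2, a deubiquitinase, had the largest amplitude of all clock genes (1.82, SE 0.15, 12.6-fold, peak 13.3 h, SE 0.3, adjusted p = 6.06e-08). Usp2 read 5.56, 6.52, 6.38 and 6.15 at ZT0, 5.86, 6.47, 5.82, 6.86 and 8.33 at ZT4, 8.54, 9.01, 8.20 and 9.18 at ZT8, 9.51, 9.77, 9.52 and 9.52 at ZT12, 9.71, 9.46, 8.81 and 9.91 at ZT16, and 8.03, 7.84, 7.69 and 8.61 at ZT20. All 4 arrays at ZT12 (9.58 ± 0.13) were above the highest at ZT0 (6.52), and the array at ZT4, replicate 5, read 8.33, above the other 4 of its time. The F-box proteins Fbxl21 (1.34-fold), Btrc (1.29-fold) and Fbxw11 (1.19-fold) had small rhythms, and Csnk1e, Timeless and Gsk3b did not pass. In all, 17 of 23 tested clock genes were rhythmic, beside 31.9% of all genes.

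**Figure D2:**
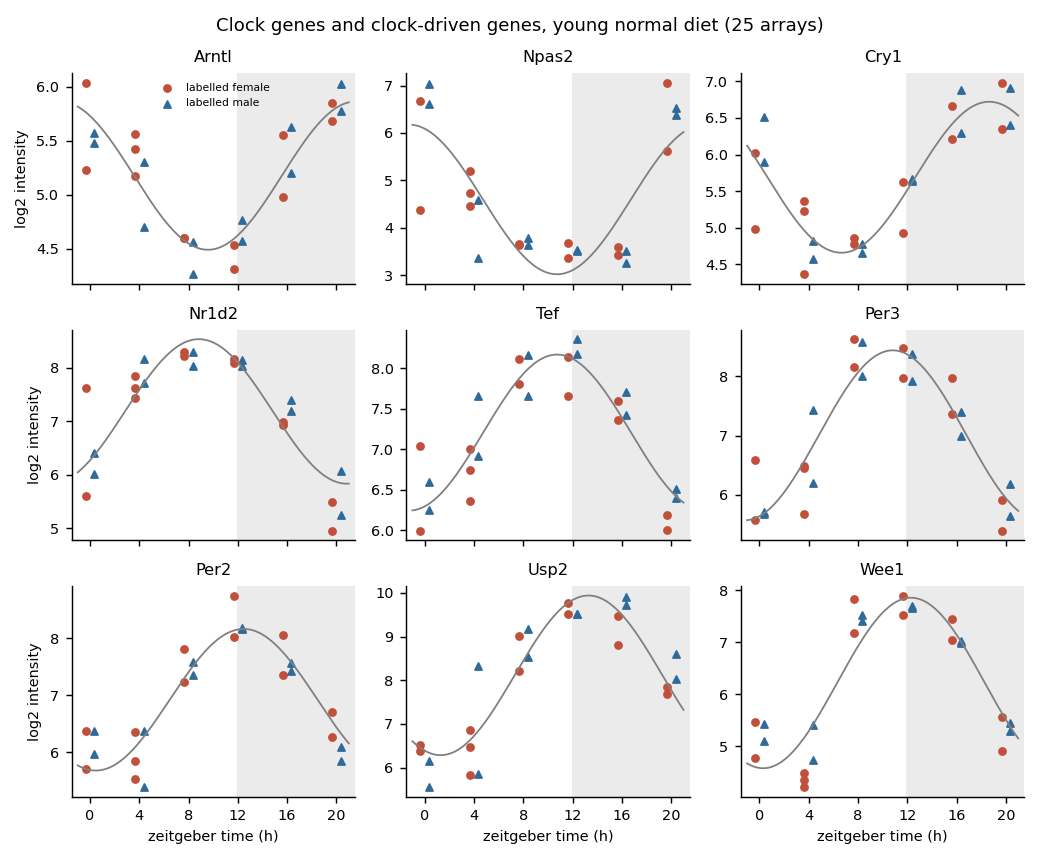
Log2 intensity (y axis) of 9 genes in each of the 25 arrays by zeitgeber time (x axis, h, dark phase shaded), with labelled females as circles, labelled males as triangles and the fitted 24 h curve as a line. Arntl, Npas2 and Cry1 are high late in the dark phase or around its end, Nr1d2 from ZT4 to ZT12, and the others from ZT8 to ZT16.

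The clock genes also date each array. A time was read from the 17 rhythmic clock genes of an array after fitting the curves to the other 24. These genes had been called rhythmic with all 25 arrays at their labelled times, so the reading is not fully independent of the labels. The time read lay within 2 h of the label in 22 of 25 arrays, with a median offset of -0.2 h. Replicate 2 at ZT0 read as 4.2 h, replicate 5 at ZT4 as 6.5 h and replicate 3 at ZT4 as 1.9 h. Transcripts of the sex chromosomes set 3 more arrays apart. Xist, the X-inactivation transcript, read 6.47 at ZT12, replicate 2, and 6.56 at ZT20, replicate 3, both labelled female. The mean of the Y-linked Eif2s3y and Kdm5d read 10.7 at ZT12, replicate 1, labelled male. All 3 readings thus go in the direction of the labelled sex. Over the 25 arrays Xist was 4.79 ± 0.89 (SD) in labelled females and 4.14 ± 0.28 in labelled males, and the Y-linked mean was 8.11 ± 0.29 and 8.40 ± 0.80, so the deposited values hardly separate the labelled sexes and no statement on sex is drawn from them. The 3 arrays set apart by sex-linked transcripts, replicate 2 at ZT0 and the array labelled 23 weeks are called the 5 doubted arrays. The first 3 were included for standing apart from the other arrays, not for contradicting their labels. Correlations of pairs of arrays lay between 0.977 and 0.995, and no 2 arrays were identical.

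Beyond the clock, each time of day had its own leading genes. Around ZT8 the largest amplitude of all genes was that of Sphk2 (1.86, SE 0.16, 13.1-fold, peak 9.1 h, adjusted p = 1.31e-07), a sphingosine kinase. Sphk2 read 6.31, 8.29, 6.06 and 6.81 at ZT0, 7.87, 7.50, 7.17, 7.32 and 8.91 at ZT4, 9.38, 9.68, 9.63 and 10.00 at ZT8, 9.10, 8.92, 9.64 and 9.27 at ZT12, 7.40, 6.79, 7.69 and 6.96 at ZT16, and 5.88, 5.59, 5.41 and 6.15 at ZT20. Its arrays at ZT8 (9.67 ± 0.26) all exceeded those at ZT20 (5.76 ± 0.33), and replicate 2 at ZT0 read 8.29 where the other 3 lay between 6.06 and 6.81. With it peaked Ppp1r3g, a glycogen-targeting subunit of protein phosphatase 1 (5.43-fold, 7.7 h), the desaturase homologue Fads3 (3.81-fold, 8.0 h) and Dixdc1 (3.16-fold, 6.1 h).

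Around ZT12 the leader was Wee1, the kinase that holds CDK1 inactive (amplitude 1.64, SE 0.15, 9.68-fold, peak 12.3 h, adjusted p = 1.81e-07). Wee1 read 5.1, 5.47, 4.77 and 5.43 at ZT0, 4.74, 4.22, 4.35, 4.49 and 5.41 at ZT4, 7.41, 7.83, 7.17 and 7.53 at ZT8, 7.70, 7.52, 7.90 and 7.65 at ZT12, 7.02, 7.04, 7.44 and 6.99 at ZT16, and 5.44, 4.91, 5.56 and 5.30 at ZT20. The values at ZT12 (7.69 ± 0.16) and ZT4 (4.64 ± 0.47) did not overlap, and at ZT8 the gene had already reached 7.17 or more in each array. It was accompanied by the uridine phosphorylase Upp2 (5.56-fold, 10.6 h), by Nrg4, a secreted ligand of the epidermal growth factor family (5.46-fold, 13.5 h, adjusted p = 1.26e-08), and by the acyl-CoA thioesterase Acot3 (5.20-fold, 12.8 h).

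Around ZT0 Cldn1, a tight-junction protein, had the largest amplitude (1.08, SE 0.09, 4.50-fold, peak 23.8 h, adjusted p = 8.1e-08). Cldn1 read 8.43, 8.31, 8.28 and 8.15 at ZT0, 8.07, 8.25, 7.50, 8.09 and 7.15 at ZT4, 7.0, 6.24, 7.10 and 6.68 at ZT8, 5.86, 6.44, 6.09 and 5.91 at ZT12, 6.54, 7.26, 7.41 and 6.14 at ZT16, and 7.91, 7.61, 8.22 and 7.70 at ZT20. All arrays at ZT0 (8.29 ± 0.12) were above those at ZT12 (6.07 ± 0.26). Slc30a10, a manganese exporter (4.49-fold, 23.0 h), Hsd3b5, a steroid reductase of mouse liver (3.80-fold, 1.3 h, SE 1.1, adjusted p = 0.0278), and Ypel2 (3.78-fold, 22.1 h) completed that window. Around ZT20 Cdkn1a, the cyclin-dependent kinase inhibitor p21, led (1.31, SE 0.22, 6.12-fold, peak 19.5 h, adjusted p = 0.00042). Cdkn1a read 8.48, 8.70, 9.24 and 9.63 at ZT0, 9.88, 9.31, 9.78, 9.87 and 8.79 at ZT4, 8.49, 7.29, 7.74 and 7.41 at ZT8, 8.11, 9.45, 8.84 and 8.67 at ZT12, 10.78, 10.90, 9.29 and 11.41 at ZT16, and 11.08, 11.11, 10.97 and 11.09 at ZT20. Its arrays at ZT20 (11.06 ± 0.06) were nearly equal and lay above those at ZT8 (7.73 ± 0.54). The others were ceruloplasmin (Cp, 3.05-fold, 20.8 h), the acyltransferase Acnat2 (3.02-fold, 20.98 h) and the antiviral Rsad2 (3.01-fold, 18.9 h).

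The first hours of light held the peaks of protein folding in the endoplasmic reticulum. Of 24 tested genes of endoplasmic reticulum folding and stress, 20 (83.3%, beside 31.9% of all genes) were rhythmic, and their mean peak was at 1.63 h, with a concentration of 0.96 (1 would mean a shared peak time). The median amplitude of all 24 was 0.33, beside 0.10 over all genes. Sdf2l1, a chaperone-complex component, swung 3.33-fold, the secreted stress protein Manf 3.02-fold (adjusted p = 7.54e-07), Hyou1 2.88-fold and Hspa5, the luminal chaperone BiP, 2.45-fold (peak 1.3 h, SE 0.4, adjusted p = 1.03e-06). Hspa5 read 10.01, 10.43, 10.33 and 10.21 at ZT0, 10.36, 10.19, 10.96, 10.14 and 9.77 at ZT4, 9.80, 9.48, 9.50 and 9.53 at ZT8, 8.96, 9.35, 8.95 and 9.41 at ZT12, 9.10, 9.48, 9.05 and 9.0 at ZT16, and 9.86, 9.91, 10.02 and 10.03 at ZT20. The 5 arrays at ZT4 (10.29 ± 0.43) lay above the 4 at ZT16 (9.16 ± 0.22). Xbp1, the transcription factor of the unfolded protein response, peaked at 1.5 h (1.79-fold), Pdia4 and Pdia6, disulfide isomerases, at 1.1 h and 1.7 h, and Calr at 1.4 h. Of the 4 genes that did not pass, Ddit3 (CHOP) had an amplitude of 0.03 and Herpud1 of 0.14. Without the doubted arrays 17 of 24 passed.

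The proteasome, which degrades ubiquitin-tagged proteins, peaked early in the light phase as well. Of 27 tested subunits 20 (74.1%) were rhythmic with a mean peak at 2.5 h, though none reached 2-fold. Psmb3 swung 1.72-fold (peak 4.9 h, SE 0.8), Psmd2 1.60-fold (4.0 h), Psmb6 1.52-fold (4.5 h) and Psmd1 1.38-fold (1.2 h, adjusted p = 2.46e-05). Without the doubted arrays 16 of 27 passed. Of the cytosolic ribosome, 4 of 52 protein genes (7.69%) were rhythmic, and 1 without replicate 3 at ZT20. Among 17 cytosolic chaperones 9 (52.9%) passed, with peaks spread over the day (mean peak 0.05 h, concentration 0.59). Hsp90aa1 (1.94-fold, peak 21.9 h, SE 0.6, adjusted p = 0.00025) and Hspb1 (1.90-fold, 21.98 h) peaked late in the dark phase, and Hspa8 (1.57-fold) at 13.0 h. Without the doubted arrays 3 of 17 passed, and without replicate 2 at ZT12 alone 5 did.

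Around ZT4 the 4 largest amplitudes were those of Cyp51 and Mvd, both of cholesterol synthesis, of Chrna4, a nicotinic acetylcholine receptor subunit (2.90-fold, 5.9 h, SE 1.1, adjusted p = 0.0272), and of Spsb4, a SOCS box protein (2.87-fold, 5.6 h, adjusted p = 5.08e-05). Cholesterol synthesis peaked in the middle of the light phase. Of 17 tested genes, 14 (82.4%) were rhythmic with a mean peak at 5.39 h, and 8 reached 2-fold. Cyp51, lanosterol demethylase (amplitude 0.88, SE 0.13, 3.37-fold, peak 5.2 h, SE 0.6, adjusted p = 0.000166), led, with lanosterol synthase Lss (2.73-fold, 7.7 h), Mvd of the mevalonate branch (2.72-fold, 4.4 h), squalene epoxidase Sqle (2.49-fold, 4.6 h) and the transport protein Stard4 (2.31-fold, 4.7 h, adjusted p = 5.5e-06). Cyp51 read 5.75, 5.08, 6.53 and 5.09 at ZT0, 6.33, 6.90, 6.42, 7.04 and 6.20 at ZT4, 5.99, 6.52, 6.15 and 5.43 at ZT8, 5.71, 6.05, 4.87 and 6.16 at ZT12, 4.38, 5.09, 5.01 and 3.40 at ZT16, and 4.60, 5.69, 5.26 and 4.97 at ZT20. The arrays at ZT4 (6.58 ± 0.37) did not overlap those at ZT16 (4.47 ± 0.78), where replicate 4 was lowest at 3.40. Srebf2, the transcription factor of the pathway, peaked earlier than the list's mean, at 1.7 h (SE 0.7, 1.38-fold). Insig2, which retains SREBP proteins in the endoplasmic reticulum, was counted with fatty acid synthesis and not in this list. It peaked at 22.02 h (2.89-fold, adjusted p = 4.26e-06), while its paralogue Insig1 peaked at 5.8 h (1.51-fold). Without the doubted arrays 12 of the 17 passed, and without replicate 4 at ZT16 alone 10 did.

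In most other metabolic lists the share of rhythmic genes lay nearer to the 31.9% of all genes. The haem list (85.7%) and the list of NAD metabolism and sirtuins (80.0%) were exceptions. All counts are given as a description. Of 20 fatty acid and triglyceride synthesis genes 8 (40.0%) passed, with the largest amplitude in Insig2, named above (2.89-fold, 22.02 h). Fads1, a desaturase, peaked at 6.1 h (2.64-fold), the lipogenic regulator Thrsp at 11.8 h (2.72-fold), fatty acid synthase Fasn at 9.002 h (1.79-fold) and Elovl6, an elongase, at 12.5 h (2.36-fold, adjusted p = 0.0464). That count fell to 5 without the doubted arrays, to 4 without replicate 4 at ZT12, and to 5 without any of replicate 2 at ZT8, replicate 1 at ZT12, replicates 2 and 4 at ZT0, and replicates 1 and 3 at ZT20. Among 18 bile acid genes 8 (44.4%) passed. Cyp7a1, the rate-limiting enzyme of bile acid synthesis, swung 3.92-fold with a peak at 13.5 h (SE 0.6, adjusted p = 0.000291), Cyp8b1, which sets the hydroxylation of the product, 2.06-fold at 22.5 h, and the sterol exporter Abcg8 2.24-fold at 7.1 h. Of 18 glucose and glycogen genes 7 (38.9%) passed, with Ppp1r3c, another glycogen-targeting subunit, at 22.4 h (3.34-fold, adjusted p = 1.21e-06) and glycogen synthase Gys2 at 10.8 h (1.74-fold).

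Of 21 PPAR-alpha targets and fatty acid oxidation genes 7 (33.3%) passed, near the share of all genes: Acot3 named above, Pdk4, which inhibits pyruvate dehydrogenase, at 19.5 h (2.49-fold), and the thioesterases Acot1 and Acot2 at 17.1 h and 16.7 h (1.91-fold and 1.75-fold). Of 66 oxidative phosphorylation genes 14 (21.2%) passed, with a mean peak at 5.31 h, as for Ndufv1 (1.55-fold, 5.6 h) and Uqcr11 (1.58-fold, 5.5 h). Without replicate 3 at ZT20 that count was 9. Of 7 haem genes 6 (85.7%) passed. The synthesis enzymes Ppox (1.58-fold), Alad (1.41-fold) and Fech (1.49-fold) peaked at 6.6 to 8.7 h. Alas1, the first enzyme of the pathway, peaked at 12.8 h (1.64-fold, adjusted p = 0.0405). The largest amplitude of the 6 was that of the haem oxygenase Hmox1, which is not a synthesis enzyme (1.95-fold, 14.8 h). Of 24 xenobiotic genes 11 (45.8%) passed, with Gsta2, a glutathione transferase, at 12.4 h (2.32-fold), Fmo5 at 14.7 h (2.07-fold) and the carboxylesterase Ces2a at 5.9 h (2.01-fold). Of 10 genes of NAD metabolism and sirtuins 8 (80.0%) passed, and 4 without replicate 1 at ZT4. Among them Nmrk1, nicotinamide riboside kinase, swung 4.91-fold with a peak at 12.9 h (adjusted p = 2.79e-07).

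The strong rhythms around ZT16 were led by acute-phase transcripts. Of 18 tested genes of acute-phase proteins, which the liver secretes in inflammation, 12 (66.7%) were rhythmic and 5 reached 2-fold: Lcn2, which binds bacterial iron carriers (amplitude 1.28, SE 0.18, 5.87-fold, peak 17.2 h, SE 0.6, adjusted p = 5.46e-05), Saa1 (5.11-fold, 17.6 h, adjusted p = 1.21e-06), Saa2 (4.23-fold, 17.9 h), Orm2 (5.03-fold, 16.4 h) and Cp. Over all 12 the mean peak was at 20.1 h with a concentration of 0.72, as 5 peaked around ZT16, 3 around ZT20 and 4 around ZT0. Lcn2 read 8.67, 10.50, 9.64 and 9.60 at ZT0, 7.41, 8.09, 8.42, 8.64 and 8.23 at ZT4, 8.66, 9.53, 8.26 and 8.20 at ZT8, 9.88, 10.00, 11.69 and 9.10 at ZT12, 10.38, 11.08, 9.36 and 11.11 at ZT16, and 10.16, 10.74, 10.14 and 11.18 at ZT20. The arrays at ZT20 (10.56 ± 0.50) did not overlap those at ZT4 (8.16 ± 0.47), and replicate 3 at ZT12 was the highest of all at 11.69. Saa1 read 10.996, 11.57, 10.94 and 11.18 at ZT0, 9.24, 9.46, 10.09, 9.98 and 9.79 at ZT4, 10.16, 10.49, 10.23 and 9.84 at ZT8, 11.02, 11.24, 12.62 and 10.62 at ZT12, 11.56, 12.48, 11.46 and 11.76 at ZT16, and 12.27, 12.02, 11.61 and 12.24 at ZT20. Its arrays at ZT20 (12.03 ± 0.31) and ZT4 (9.71 ± 0.36) did not overlap, and the highest of the 25 was again replicate 3 at ZT12, at 12.62. The fibrinogen chains Fgb and Fgg peaked instead at 2.0 h and 0.8 h, with 1.11-fold and 1.14-fold curves.

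Interferon-induced genes peaked in the dark phase too: 10 of 15 (66.7%) passed with a mean peak at 17.3 h, among them Rsad2, Oasl2 (2.32-fold, 15.9 h, adjusted p = 1.77e-05), Ifit2 (2.06-fold, 16.8 h, adjusted p = 9.07e-06) and Ifit3 (1.92-fold, 17.4 h). Markers of macrophages had peaks in the same hours. Of 10 tested Kupffer cell and macrophage markers 7 (70.0%) passed with a mean peak at 17.0 h, among them Adgre1, the surface antigen F4/80 (2.34-fold, adjusted p = 0.0142), the complement subunit C1qa (2.09-fold, peak 17.2 h, SE 0.8, adjusted p = 0.00137), Vsig4 (2.02-fold) and Cd68 (1.95-fold). C1qa read 7.36, 7.58, 7.68 and 6.87 at ZT0, 6.94, 6.81, 7.27, 6.82 and 7.04 at ZT4, 7.59, 7.61, 6.57 and 6.85 at ZT8, 7.40, 7.25, 8.73 and 7.12 at ZT12, 7.60, 8.51, 7.80 and 7.74 at ZT16, and 8.00, 8.17, 7.91 and 7.84 at ZT20. The values at ZT20 (7.98 ± 0.14) lay above all at ZT4 (6.98 ± 0.19), and replicate 3 at ZT12 was the highest at 8.73.

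Of 7 neutrophil markers on the array, 3 were above the limit on dim genes, which is set on the mean over all 103 arrays, and passed (S100a9 2.26-fold at 14.5 h, Ltf 2.15-fold, Camp 1.58-fold), as did 4 of 8 T and NK cell markers (Cd3e 1.68-fold, Nkg7 1.61-fold, Cd3g 1.51-fold, Gzma 1.32-fold, mean peak 16.0 h), and 2 of 10 endothelial markers (0 without the doubted arrays). Camp averaged 4.10 (log2) over these 25 arrays, under the limit on dim genes of 4.131. Of 4 B and plasma cell markers 0 passed by limma, with 1 at an unadjusted p under 0.05. Hepatocyte markers stood high and nearly flat, with 2 of 8 rhythmic (Ttr at an amplitude of 0.09 and Cyp2e1 of 0.10) and a list mean between 11.24 and 11.71 over the 25 arrays. The mean of the 10 macrophage markers ranged from 6.91 to 7.19 over the arrays at ZT4, from 6.56 to 7.78 at ZT8, from 6.99 to 9.01 at ZT12, from 7.35 to 8.55 at ZT16, from 7.55 to 8.31 at ZT20 and from 7.15 to 8.07 at ZT0, with replicate 3 at ZT12 the highest. Leaving out any 1 array left 7 or 8 macrophage markers, 11 to 13 acute-phase genes and 9 to 11 interferon genes rhythmic, and without the doubted arrays 6, 12 and 10 were. In whole liver, more cells of a type and more RNA per cell cannot be told apart. The part of the macrophage markers in the acute-phase and interferon rhythms was not tested.

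**Figure D3:**
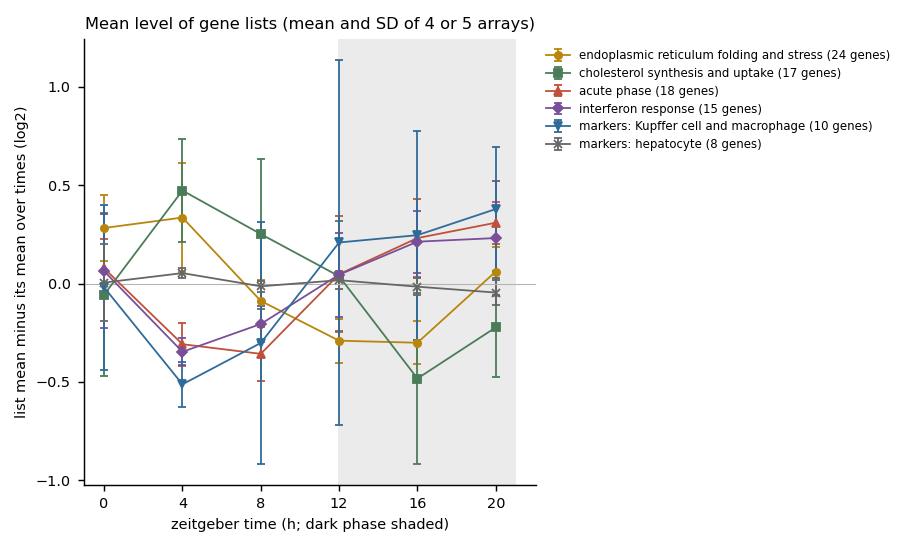
Mean log2 level of the genes of 6 lists in an array, minus the list's mean over the 6 times (y axis), by zeitgeber time (x axis, h, dark phase shaded); symbols are means and bars SDs of 4 or 5 arrays. Folding genes are highest at ZT0 and ZT4 and cholesterol genes at ZT4, the acute-phase, interferon and macrophage lists are highest at ZT16 and ZT20, and the hepatocyte markers stay near 0.

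Of 17 cell cycle and growth arrest genes 11 (64.7%) passed: besides Wee1 and Cdkn1a these included the proliferation genes Mki67 (1.74-fold, 14.9 h), Ccna2 (1.71-fold, 15.6 h) and Cdk1 (1.67-fold, 14.5 h). Mki67 was dim, with means of 3.73 at ZT4 and 4.53 at ZT16, around the limit on dim genes of 4.131 (log2). The immediate-early genes Fos (3.42-fold, 17.7 h) and Egr1 (1.95-fold, 19.2 h) and the glucocorticoid-induced chaperone partner Fkbp5 (2.20-fold, 17.5 h) passed, in lists where 6 of 15 and 4 of 10 did (40.0% each, near the 31.9% of all genes). The transferrin receptor Tfrc peaked at 16.1 h (2.01-fold).

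**Figure D4:**
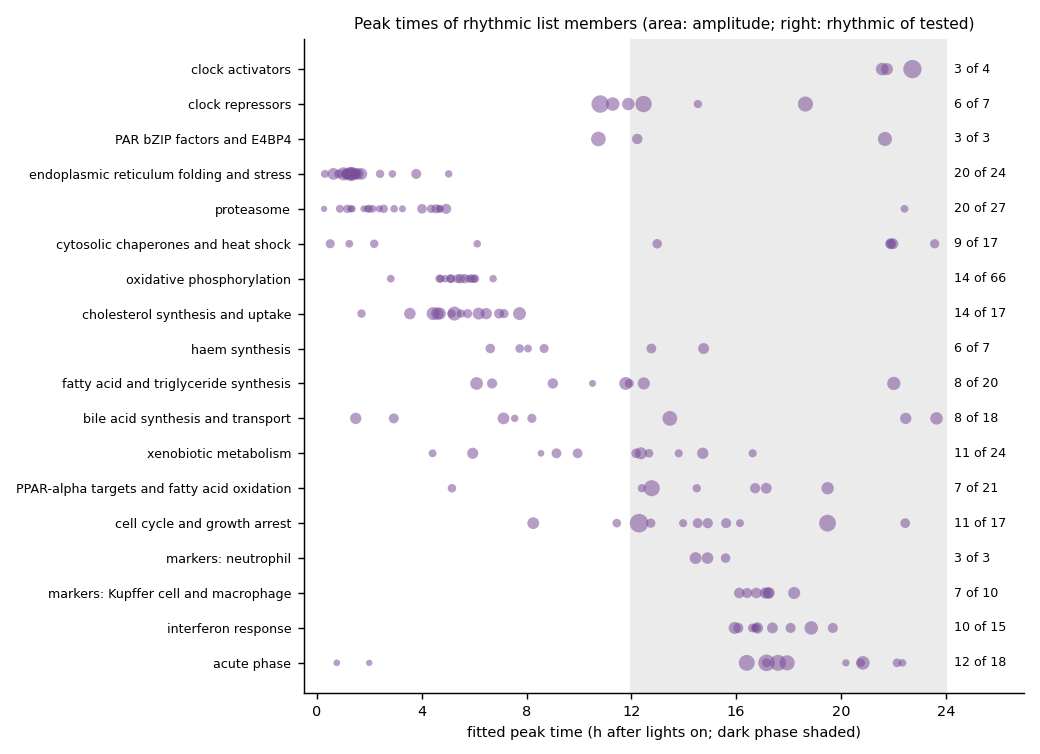
Fitted peak time (x axis, hours after lights on, dark phase shaded) of every rhythmic member of 18 gene lists (y axis), with the area of a point growing with its amplitude and the count of rhythmic among tested members at the right. Folding, proteasome, respiratory and cholesterol genes peak in the first 8 h of light, apart from the proteasome gene Psmd7 at 22.4 h, and macrophage, neutrophil and interferon genes in the dark phase.

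A 12 h component added to the 24 h curve was found for 16 genes (0.136% of those tested), and 1469 genes had an unadjusted p under 0.05. Leading were Lgr5, a receptor that amplifies WNT signals (12 h amplitude 0.51, SE 0.07, peaks at 10.7 h and 22.7 h, adjusted p = 0.0104), and Rnf43, the ubiquitin ligase that clears WNT receptors (0.48, SE 0.07, peaks at 11.2 h and 23.2 h, adjusted p = 0.0104), followed by Slc45a3 (0.48), Nfil3 (0.39), Slc30a10 (0.36), Ypel2 (0.35) and Crebrf (0.33). Lgr5 read 5.70, 5.48, 5.59 and 5.92 at ZT0, 4.78, 5.56, 4.87, 5.08 and 4.91 at ZT4, 5.54, 5.29, 5.95 and 5.57 at ZT8, 5.22, 5.29, 5.70 and 5.25 at ZT12, 4.44, 3.98, 4.85 and 3.87 at ZT16, and 4.68, 4.8, 4.97 and 4.94 at ZT20. It was thus high at ZT0 and ZT8 and lowest at ZT16, where all 4 arrays (4.28 ± 0.45) lay under those at ZT0 (5.67 ± 0.19). The count rested on single arrays: without 1 array it fell below 16 by more than 1.5 times for 20 of the 25 and rose above it as much for 2, from 2 genes (without replicate 4 at ZT0) to 58 (without replicate 3 at ZT16), and without the doubted arrays 2 genes passed.

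In the test of the rhythm between arrays labelled male and female, 0 genes passed by limma, with any of its eBayes settings, and 341 (2.89%) had an unadjusted p under 0.05. Since sex-linked transcripts hardly separate these labels, nothing on sex is read from it. Against old mice on the normal diet, in a fit of all 103 arrays, 0 passed by limma with the same settings, and 628 (5.33%) had an unadjusted p under 0.05. In that fit 3696 genes were rhythmic in young and 3450 in old mice, and 2080 in both (56.3% of the first and 60.3% of the second). Of these 2080, 80.3% peaked within 2 h of each other. A p that misses the threshold does not show that the rhythms were alike. Of 15 clock genes rhythmic in both groups, the peak in old mice lay later by a median of 0.77 h (range -1.03 to 1.49 h).

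The rhythm differed between young mice on the normal diet and young restricted mice for 1163 genes (9.87% of those tested). In 2 lists the counts were 14 of 17 cytosolic chaperones (82.4%) and 17 of 24 endoplasmic reticulum folding genes (70.8%), and without the doubted arrays 13 and 15 did. For 19 folding genes rhythmic in both groups, the restricted peak lay at a median of -4.23 h from the normal-diet peak (range -6.53 to 3.36 h), the minus sign meaning earlier, as for Hspa5 (1.3 h against 20.3 h, adjusted p of the difference 0.00029), Hyou1 (1.0 h against 19.5 h, 3.07e-06) and Sdf2l1 (1.3 h against 21.6 h, 0.00112), with median amplitudes of 0.42 on the normal diet and 0.44 under restriction. Xbp1 peaked at 1.5 h and 1.4 h (adjusted p of the difference 0.331).

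Cytosolic chaperones had smaller amplitudes on the normal diet. Of the 6 rhythmic in both groups, all 6 had the larger amplitude under restriction (median 0.30 against 0.60). Hsp90aa1 read 9.99, 9.63, 9.61 and 9.68 at ZT0, 9.09, 9.0, 9.85, 9.69 and 9.13 at ZT4, 9.46, 8.70, 8.73 and 8.77 at ZT8, 8.71, 9.12, 8.91 and 9.12 at ZT12, 9.53, 9.69, 9.19 and 8.88 at ZT16, and 9.75, 9.67, 9.99 and 9.84 at ZT20. On the normal diet its arrays at ZT20 (9.81 ± 0.14) lay above those at ZT8 (8.92 ± 0.36), of which replicate 1 was highest at 9.46. The amplitude was 0.48 with a peak at 21.9 h, and under restriction 1.20 with a peak at 18.2 h (adjusted p of the difference 9.88e-08). Hspb1 also differed (0.46 against 1.28, 22 h against 18.98 h, 2.33e-05), as did the co-chaperone Stip1 (0.30 against 0.66, 23.6 h against 18.6 h, 9.08e-07). Several of the smallest p-values belonged to genes with almost no rhythm on the normal diet: Cbx5, a heterochromatin protein (amplitude 0.03 against 0.52, 1.34e-08), the ubiquitin-conjugating enzyme Ube2n (0.07 against 0.55, 5.91e-08), G3bp1 of stress granules (0.11 against 0.50, 2.76e-07) and Slc35e1 (0.02 against 0.44, 6.76e-07). Ahsa2, a co-chaperone of HSP90, had amplitudes of 0.21 and 0.48 (2.76e-07).

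Clock genes had larger fitted amplitudes under restriction. Of 16 clock genes rhythmic in both groups, 4 passed the test of the difference: Arntl (amplitude 0.69 on the normal diet and 1.06 under restriction, adjusted p = 0.00236), Cry1 (1.03 and 1.62, 0.00237), Nr1d2 (1.35 and 2.16, 0.00627) and Per2 (1.24 and 2.03, 0.0252). The amplitude was larger under restriction in 15 of 16, with a median ratio of 1.5, and the peak earlier in 13 of 16, with a median of -0.65 h (range -1.78 to 1.16 h). Among the leading genes of the windows, Cldn1 (1.09 and 1.91, 0.00218), Slc30a10 (1.09 and 1.99, 0.00255), Sphk2 (1.86 and 2.56, 0.0111) and Mvd (0.73 and 0.37, 0.0286) passed. Of 17 cholesterol genes 6 (35.3%) passed, and 2 without the doubted arrays. In the acute-phase, interferon, macrophage and neutrophil lists 0 genes passed by limma, and 2 of 18, 3 of 15, 2 of 10 and 0 of 3 had an unadjusted p under 0.05. Lcn2, for example, had amplitudes of 1.27 and 0.86 (adjusted p = 0.60), and Saa1 1.17 and 0.96 (0.690). The 2 comparisons with other groups share the young normal-diet arrays.

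**Figure D5:**
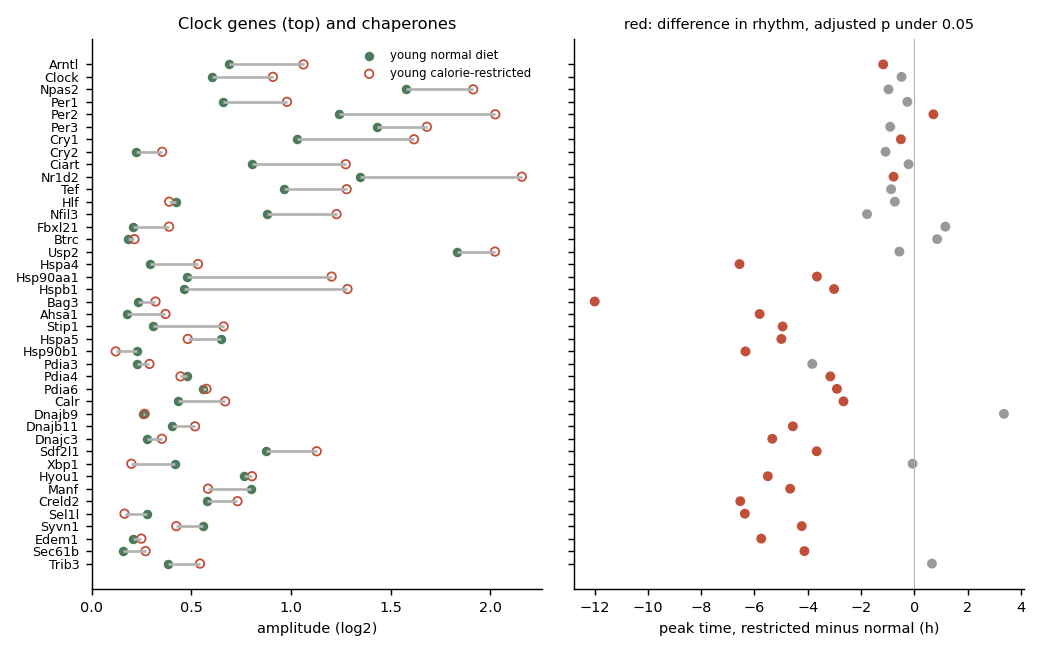
Left, amplitude (x axis, log2) of clock genes and of chaperones rhythmic in both groups, on the normal diet (filled) and under restriction (open); right, peak time under restriction minus that on the normal diet (x axis, h), in red where the rhythm differed at an adjusted p under 0.05. Clock genes lie between -1.78 h and 1.16 h, and the medians of the cytosolic and the endoplasmic reticulum chaperones are -5.37 h and -4.23 h.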

How the data were processed

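Liver RNA was measured on Affymetrix mouse arrays. The deposited values are log2 intensities that the authors made with RMA, per the submitters' processing notes (version not given in the sources used here), and they ran from -0.32 to 13.4 in these arrays. The number of arrays limits the precision. RNA was amplified for 17 cycles per the labels' protocols. Samples were grouped by title. The 21261 probe sets divide into 15869 with a single symbol, 225 with more and 5167 without. Symbols were updated through gene IDs to RefSeq GRCm38.p6, and 153 unmatched kept theirs. The probe set with the highest mean stood for each of 15716 genes, and the 3929 dimmest (25%, mean log2 over all 103 arrays under 4.131) were left out.

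limma 3.58.1 in R 4.3.3 fitted a cosine and a sine of 24 h with a sex term to the 25 arrays (eBayes with trend; the residual SD had a median of 0.156 on 21 degrees of freedom), with Benjamini-Hochberg adjustment over 11787 genes and a threshold of 0.05. Comparisons with other groups used all 103 arrays in 1 fit, where values can differ slightly. Lists are described by counts and medians, and mean peaks are circular means of rhythmic members. The fits were tested on simulated data. Members, gene lists and tests were chosen with earlier results of these data known.

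Genes were named by rule: all clock genes, the 4 largest amplitudes in each 4 h window, the 6 largest 12 h amplitudes, the 6 smallest p-values of a difference, and up to 4 list members; predicted, sex-chromosome and clock genes were left out of the windows. Beyond the rule, the array values of Arntl, Saa1, C1qa, Hspa5, Hsp90aa1 and Lgr5, and the list members Stard4, Insig1, Srebf2, Psmd1, Xbp1, Pdia4, Pdia6, Calr, Cyp8b1, Fasn, Alad, Fgb, Fgg, Ccna2, Cdk1, Ddit3 and Herpud1 were chosen after their values were seen. Alternatives changed the scaling, the filter, the probe sets, the model, the test and the arrays.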

Additional observations from a re-analysis of the deposited data

Results flagged for a closer look

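In 10 of 126 groups of arrays (a gene at a time of day), 1 array stood apart from the others, where 1 in 20 would be about 6. The groups are not independent, since all genes were read on the same arrays. The lowest values set apart were those of Arntl at ZT8, replicate 1 (4.26), Npas2 at ZT0, replicate 2 (4.39), Cry1 at ZT12, replicate 3 (4.93) and Rnf43 at ZT8, replicate 1 (4.83). The highest were those of Per3 at ZT0, replicate 2 (6.59), Usp2 at ZT12, replicate 2 (9.77), Wee1 at ZT16, replicate 3 (7.44), Lgr5 at ZT12, replicate 3 (5.70), Hsp90aa1 at ZT8, replicate 1 (9.46) and Hspa5 at ZT8, replicate 1 (9.80). Most of these thus fell on the same few arrays: replicate 1 at ZT8, replicate 2 at ZT0 and replicate 3 at ZT12. Replicate 1 at ZT8 and replicate 3 at ZT12 are not among the doubted arrays.

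Of 53 named genes, 15 differed in rhythm between young restricted and young normal-diet mice by limma's test of the difference. The adjusted p was 0.00236 for Arntl, 0.0252 for Per2, 0.00237 for Cry1, 0.00627 for Nr1d2 and 0.0216 for Timeless, which was not rhythmic on the normal diet. It was 0.00218 for Cldn1, 0.00255 for Slc30a10, 0.0286 for Mvd and 0.0111 for Sphk2. It was 1.34e-08 for Cbx5, 5.91e-08 for Ube2n, 9.88e-08 for Hsp90aa1, 2.76e-07 for Ahsa2, 2.76e-07 for G3bp1 and 6.76e-07 for Slc35e1, which had been chosen for their small p.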

How the results depend on the processing

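The count of rhythmic genes (3759) stayed within 1.5 times under both rescalings, both filters, all probe sets, the other eBayes settings, the rank test and the means of the 6 times. In labelled females alone 1008 genes passed and in labelled males alone 556, of which 169 reached 2-fold; these fits hold 13 and 12 arrays. Leaving out 1 array gave 3396 to 3825 genes (244 to 293 of at least 2-fold), and leaving out all arrays of a replicate number gave 2180 to 3620 (228 to 289). No pairing by replicate number was seen once time and labelled sex were taken out. The median correlation of deviations of same-numbered arrays was -0.008, with 13 of 60 pairs over 0.1, and 1 of 25 arrays lay closest to its own number. Replicate numbers largely follow labelled sex, so this step can remove part of what a number shares, and pairing cannot be judged from it. With the replicate block, 3332 genes had a rhythm, 296 of at least 2-fold, and 0 a 12 h component.

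The 12 h count (16) was 30 with all arrays in 1 fit, 26 after quantile normalization, 3 without the array labelled 23 weeks, 2 without the sex-linked outliers, 2 without the doubted arrays (chosen after seeing the data) and 0 in either sex alone. Without 1 array it was 2 to 58, and without a replicate number 0 to 16. The difference from restricted mice (1163) was 1041 to 1258 without 1 array and 614 to 1105 without a replicate number; that from old mice and between sexes stayed at 0. Fits on fewer arrays have less power by construction, and no other cause was tested. Over the 163 named genes and all alternatives, the call of a 24 h rhythm was kept in 6633 of 7475 results, lost in 814 and gained in 28. No rhythmic named gene's peak moved by over 6 h under any of these alternatives. Signal over background was not analysed here, and the number of arrays sets the precision.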
